A study of Mus musculus with 30 samples.

Results

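The CHD family of chromatin remodellers, Chd1 to Chd9, was examined in ribosome-associated RNA from the nucleus accumbens of female mice. Its 9 genes were found by symbol in GENCODE M21 among the 55335 genes of the deposited count table, and all 9 were among the 19368 genes that passed the filter on low counts. The family was taken up because Chd9 differed between Susceptible and Resilient D2 libraries. Membership was thus selected on the CPM of Chd9 in those libraries. Values from that contrast are therefore given as a description, with no test, and support nothing.

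All mice carried RiboTag (RT), an HA-tagged ribosomal protein that Cre switches on, together with a Cre line. D1-Cre-RT mice tag medium spiny neurons (MSNs) of the D1 dopamine receptor class, and A2A-Cre-RT mice tag those of the D2 class, called D2 here. Each class had Control mice and mice exposed to chronic witness defeat stress (CWDS) that were sorted into Resilient and Susceptible, with 5 libraries in each of the 6 groups and 30 in all. Each library pooled 4 mice of similar social interaction ratio, collected 24 h after the social interaction test. HA immunoprecipitation enriched polyribosomes of the tagged cells without removing all other RNA, and no unprecipitated input RNA was analysed here. Neuron class and mouse line cannot be told apart. In such pooled tissue fewer cells of a type and less RNA per cell cannot be told apart either. The labels call the 5 samples of a group biological replicates, and p-values measure the spread between these pools.

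Gene counts per library ranged from 28996168 to 65882152, and the counts of a CHD gene in a library from 234 to 39439. D1 Susceptible replicate 1 stood apart, with 54.9% of its gene counts in the single feature Gm42418, against at most 5.46% in the other 29 libraries. D2 Susceptible replicates 1 and 2 also stood apart, with 15822 and 16525 genes detected against 19440 to 22375 in the other 28. Marker sums followed the class labels. The 7 D1 MSN markers summed to 1749 to 2629 CPM in D1 libraries and 283 to 1874 CPM in D2 libraries, and the 5 D2 MSN markers to 1120 to 2771 CPM and 4867 to 12799 CPM. The D1 and D2 ranges of the first overlapped through D2 Resilient replicate 5. CPM are counts scaled to a library total of 1000000 with TMM scaling.

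CHD proteins are ATP-dependent remodellers that slide, eject or space nucleosomes, using a SNF2-type ATPase motor next to paired chromodomains that can bind histone tails. Chd1 and Chd2 form the first subfamily and act at transcribed genes. Chd3, Chd4 and Chd5 serve as alternative motors of the NuRD complex, which joins remodelling to histone deacetylation, and Chd5 is known as the form of mature neurons. Chd6, Chd7, Chd8 and Chd9 form the last subfamily, with BRK domains. Mutations of human CHD7 cause CHARGE syndrome, and those of CHD8 and CHD2 are linked to autism and epilepsy. Chd9 was first described as a coactivator of nuclear receptors and in bone cell progenitors.

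All members share the SNF2-type ATPase motor, which remodellers outside the family also have. The coding sequence of its ATP-binding loop is shown for each member. Each stretch of 24 bases was taken from the GENCODE M21 protein-coding transcript with the longest reading frame, 5′ to 3′ on the coding strand (GRCm38). Capitals mark the codon of the conserved lysine that contacts ATP.
Chd1: gatgaaatgggccttgggAAAaca
Chd2: gatgaaatgggcctaggaAAGacc
Chd3: gatgagatggggctgggcAAGacc
Chd4: gatgagatgggccttgggAAAact
Chd5: gacgagatgggtttggggAAGaca
Chd6: gatgaaatgggcctagggAAAacc
Chd7: gatgagatgggtttgggaAAAacg
Chd8: gatgaaatgggattgggcAAAact
Chd9: gatgaaatgggtcttggcAAAacc
These stretches lie at chr17:15735650-15735673 (+), chr7:73493596-73493619 (-), chr11:69357744-69357767 (-), chr6:125107597-125107620 (+), chr4:152367411-152367434 (+), chr2:161019653-161019676 (-), chr4:8826903-8826926 (+), chr14:52221115-52221138 (-) and chr8:90989449-90989472 (+), in the order of the names. All are in coding exons. Any pair differed at 2 to 7 of the 24 bases. None of the 36 pairs of members shared a stretch of 50 bases in its transcripts, so reads of that length would not match a pair of members exactly.

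Chd9 (ENSMUSG00000056608) spans chr8:90828352-91054516 on the plus strand, with 23148 bases of exons in union. One gene on the opposite strand, Gm45641, overlaps its exons. The strand setting of the counting is not given, and Gm45641 had a median of 6.5 counts per library against 4277 for Chd9.

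Per kilobase of exon union, the NuRD motors stood highest among the 9 genes. Chd3 had a mean over 30 libraries of 68.7 CPM per kb, Chd4 38.2 and Chd5 18.8. Chd8, which binds beta-catenin and the H3K4 methyltransferase core, came next at 7.85 CPM per kb. The other 5 lay lower, with Chd2 at 4.35, Chd6 at 3.24, Chd9 at 3.23, Chd1 at 2.20 and Chd7 at 1.69 CPM per kb. Dividing by the length of the single transcript with the longest reading frame, a choice made after seeing the data, kept the upper 5 places. It placed Chd9 above Chd6 and Chd7 above Chd1.

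**Figure D1:**
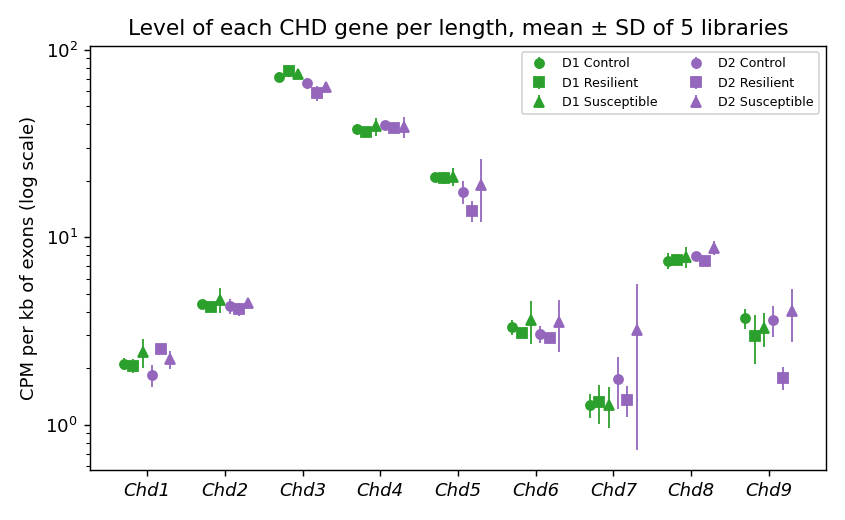
Level of each CHD gene in CPM per kilobase of exon union (log axis), as mean and SD of 5 libraries in each group, D1 in green and D2 in purple. Chd3, Chd4 and Chd5 stand above the other 6 in all groups, and relative to its mean the SD is widest for Chd7 in D2 Susceptible.

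Chd9 was lowest in D2 Resilient and at overlapping levels in the Control groups of both classes. In D2 Resilient its libraries had 49.5, 43.5, 38.3, 39.2 and 34.8 CPM, and in D2 Control 92.2, 66.0, 84.1, 104 and 71.2 CPM. All 5 Resilient libraries lay below all 5 Control libraries. The D2 Susceptible libraries had 132, 52.3, 86.3, 108 and 88.9 CPM. They spread widely, from replicate 2, just above the highest Resilient library, to replicate 1, the highest level of the 30 libraries. Replicates 1 and 2 are those with few genes detected, and replicates 3 to 5 had 86.3 to 108 CPM. The D2 Susceptible libraries overlapped Control.

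In D2, Resilient thus lay apart from Control and Susceptible overlapped it, in libraries whose contrast chose Chd9. As a description, Susceptible exceeded Resilient by a log2 difference of 1.19 (SE 0.203, 2.28-fold), and without any 1 library the difference was 1.03 to 1.34. Resilient lay below Control by a log2 difference of -1.02 (SE 0.202, 2.03-fold lower, edgeR adjusted p 0.399). DESeq2 gave that comparison an adjusted p of 0.00201, and edgeR fitted to these groups alone gave 0.00737. Voom, which gives less weight to aberrant libraries, called 0% of all genes there and so did not call Chd9. EdgeR called 0 genes there with DESeq2 size factors, no low-count filter, a replicate block, or D2 Susceptible replicates 1 and 2 left out. Susceptible against Control was 0.16 (SE 0.199, edgeR adjusted p 0.717). These comparisons share libraries with the contrast that chose the gene, so no support is read from them. The summed levels of all 8 marker lists overlapped between D2 Resilient and D2 Control.

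**Figure D2:**
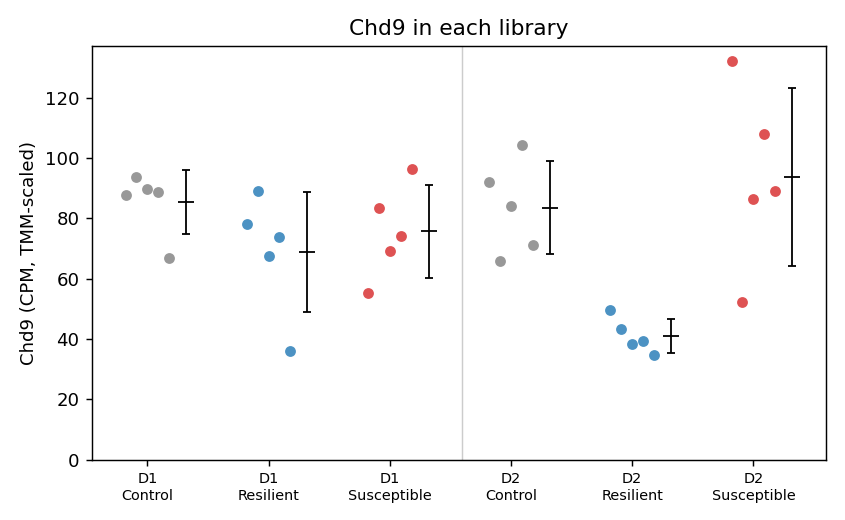
Chd9 in CPM (TMM-scaled) in each of the 30 libraries, by group, with the mean and SD of 5 libraries in black. The 5 D2 Resilient libraries sit between 34.8 and 49.5 CPM, below all other libraries except D1 Resilient replicate 5 at 36.0.

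In D1 the same gene did not differ beyond the spread between libraries, in comparisons that share no library with that contrast. D1 Control libraries had 87.7, 93.8, 89.8, 88.8 and 67.0 CPM and D1 Resilient libraries 78.1, 89.0, 67.5, 73.8 and 36.0 CPM. One Resilient library, replicate 5, fell within the D2 Resilient range, and the other 4 overlapped Control. D1 Susceptible libraries had 55.4, 83.4, 69.2, 74.0 and 96.4 CPM, across the range of the other D1 groups. The log2 differences were -0.31 (SE 0.200) for Resilient against Control, -0.17 (SE 0.200) for Susceptible against Control and 0.14 (SE 0.200) for Susceptible against Resilient, each with an edgeR adjusted p of 1. Of the 25 libraries outside D2 Resilient, 1 lay below the highest D2 Resilient library.

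Between the classes, no Chd9 difference was detected in Control mice, with a log2 difference between D1 and D2 at 0.03 (SE 0.199, edgeR adjusted p 0.965). In Resilient mice, where the D2 arm is shared with the choosing contrast and no support is read, D1 was higher by 0.75 (SE 0.201, edgeR adjusted p 0.0181). That difference was 0.66 without D1 Resilient replicate 2 (edgeR adjusted p 0.0672). The difference between the D1 and D2 changes from Control to Resilient was 0.71 (SE 0.283, edgeR adjusted p 0.928), so a different response of the classes did not pass the test.

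Chd1, whose product assembles and spaces nucleosomes at active genes, had the opposite order in D2. Its D2 Resilient libraries had 23.2, 22.0, 21.7, 22.4 and 21.3 CPM and its D2 Control libraries 17.9, 15.4, 18.1, 15.5 and 13.0 CPM. The groups did not overlap, with Resilient above Control, but the difference was not called. The log2 difference was 0.47 (SE 0.112, 1.38-fold), with an unadjusted p of 0.000215 and an edgeR adjusted p of 1. D2 Susceptible libraries had 20.7, 21.7, 18.1, 16.3 and 20.4 CPM, overlapping both. In D1 the Chd1 ranges of Control and Resilient overlapped, at 18.4 ± 1.26 and 17.9 ± 1.58 CPM (SD, n = 5).

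Chd2, which deposits histone variant H3.3 at active chromatin, was among the steadiest genes. Its group means ran from 59.1 ± 4.77 CPM in D2 Resilient to 66.3 ± 10.3 CPM in D1 Susceptible (SD, n = 5), and no comparison called it. Its variability between replicates stood at percentile 3.46 of all genes tested, beside 2.93 for Chd3, 3.55 for Chd8 and 4.72 for Chd4.

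Chd3 and Chd5 were higher in D1 than in D2 Resilient libraries. Chd3 had 637, 699, 696, 641 and 587 CPM in D1 Resilient and 437, 518, 529.6, 464 and 544 CPM in D2 Resilient. Every D1 library lay above every D2 library, and the log2 difference was 0.39 (SE 0.0741, adjusted p 0.000614 by edgeR). Chd5 had 201, 219.7, 199.6, 197 and 178 CPM in D1 Resilient and 103, 138, 141, 142 and 139.9 CPM in D2 Resilient. These groups did not overlap either, and the log2 difference was 0.58 (SE 0.147, edgeR adjusted p 0.00955).

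With Chd9, these were the 3 of 9 members called between the classes in Resilient mice, where 6.65% of all genes tested were called. Non-overlapping groups were found for 3 members, Chd1, Chd3 and Chd5, against 9.7% of all genes. The D2 Resilient libraries belong to the contrast that chose the family through Chd9, so no support for the family is read from these counts. In Control mice the D1 minus D2 log2 difference of Chd3 was 0.12 (SE 0.0740, edgeR adjusted p 0.430) and that of Chd5 was 0.26 (SE 0.146, edgeR adjusted p 0.334). No member was called there by edgeR or at an unadjusted p under 0.05, where 8.3% and 20% of all genes were, and voom called Chd5 and Chd6 beside 28.4% of all genes. Other cells' markers also differed between the classes. In D1 and D2 Resilient libraries respectively, the 5 endothelial markers summed to 10.4 to 14.0 and 44.4 to 159 CPM, the 5 mural markers to 6.66 to 10.1 and 47.1 to 128 CPM, and the 5 interneuron markers to 304 to 431 and 83.0 to 187 CPM. The 5 astrocyte markers summed to 54.8 to 64.9 and 105 to 312 CPM and the 5 microglia markers to 7.0 to 11.0 and 11.8 to 31.0 CPM, so that of the lists for other cells only the oligodendrocyte one overlapped, at 244 to 384 and 293 to 901 CPM. No marker of these lists was at 0 in all libraries of a group, and their part in the Chd3 and Chd5 differences was not tested.

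In D2, the Chd5 values of Resilient also lay below those of Control with no overlap, but the difference was not called. D2 Control libraries had 159, 146, 148, 198 and 185 CPM against the Resilient values above, which differed by -0.33 on the log2 scale (SE 0.146, edgeR adjusted p 1). Chd4, the most widely expressed NuRD motor, had overlapping groups there. Its group means ran from 291 ± 11.8 CPM in D1 Resilient to 316 ± 14.7 CPM in D2 Control (SD, n = 5), and no comparison called it.

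Chd7, a remodeller of enhancers, had the widest spread of the family relative to its mean, with a coefficient of variation of 77.2% in D2 Susceptible. D2 Susceptible libraries had 90.4, 69.4, 13.8, 26.3 and 19.9 CPM. Replicates 1 and 2, those with few genes detected, were far above the other 3. D2 Control libraries had 19.1, 22.2, 17.4, 36.1 and 25.3 CPM, which overlapped those 3 and lay below replicates 1 and 2. Chd5 and Chd6 had their highest levels of the 30 libraries in D2 Susceptible replicate 1 as well, at 290.2 and 103 CPM, with D2 Susceptible medians of 157 and 57.1 CPM. The 5 oligodendrocyte markers were also highest in these libraries, summing to 1730 CPM in replicate 1 and 1279 CPM in replicate 2, against at most 1077 CPM in the other 28. The part of these markers in the Chd5, Chd6 and Chd7 levels was not tested.

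D1 Susceptible libraries had 23.7, 15.1, 17.0, 12.3 and 19.0 CPM of Chd7. The D1 minus D2 log2 difference in Susceptible mice was -1.35 (SE 0.344, adjusted p 0.00607 by edgeR), although the groups overlapped. Leaving out D2 Susceptible replicates 1 and 2 gave -0.19 (edgeR adjusted p 0.691), and voom, which gives less weight to aberrant libraries, gave -0.31 (adjusted p 0.340). Chd3 was the other of 2 members called in Susceptible mice, at 0.23 (SE 0.0741, edgeR adjusted p 0.0219), where 23.9% of all genes were called. Without those libraries Chd3 was 0.25 (edgeR adjusted p 0.0551), and Chd5 was higher in D1 by 0.55 (edgeR adjusted p 0.000697), against 0.14 (edgeR adjusted p 0.522) with them. The Chd7 and Chd3 calls were thus lost, and a Chd5 call gained, without those libraries, while the size of the Chd3 difference hardly moved.

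**Figure D3:**
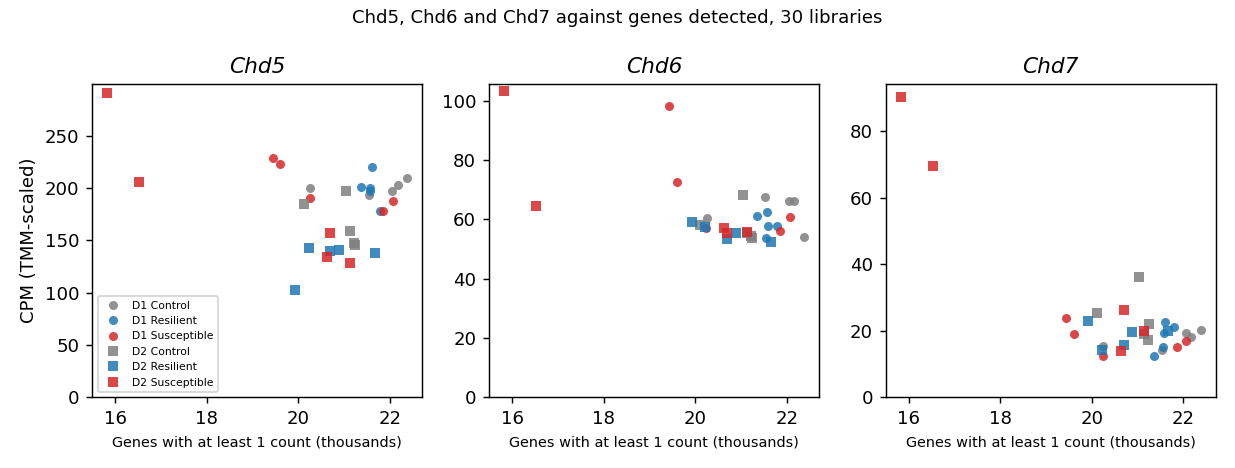
Chd5, Chd6 and Chd7 in CPM (TMM-scaled) against how many genes were detected (1 count or more), for 30 libraries, D1 as circles and D2 as squares. D2 Susceptible replicates 1 and 2 sit apart at 15822 and 16525 genes, with Chd7 at 90.4 and 69.4 CPM.

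No comparison called Chd6 or Chd8 by edgeR. Chd6, a remodeller linked to responses to oxidative stress, had group means from 55.5 ± 2.86 CPM in D2 Resilient to 69.0 ± 17.6 CPM in D1 Susceptible (SD, n = 5). In the latter, replicate 1, the library with most of its counts in Gm42418, was highest at 98.3 CPM. Chd8 had 139.5, 165, 136, 148 and 135 CPM in D2 Susceptible and 123, 129.7, 125, 112 and 125 CPM in D2 Resilient. Those groups did not overlap, with a log2 difference of 0.24 (SE 0.0812), in the contrast that chose the family.

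**Figure D4:**
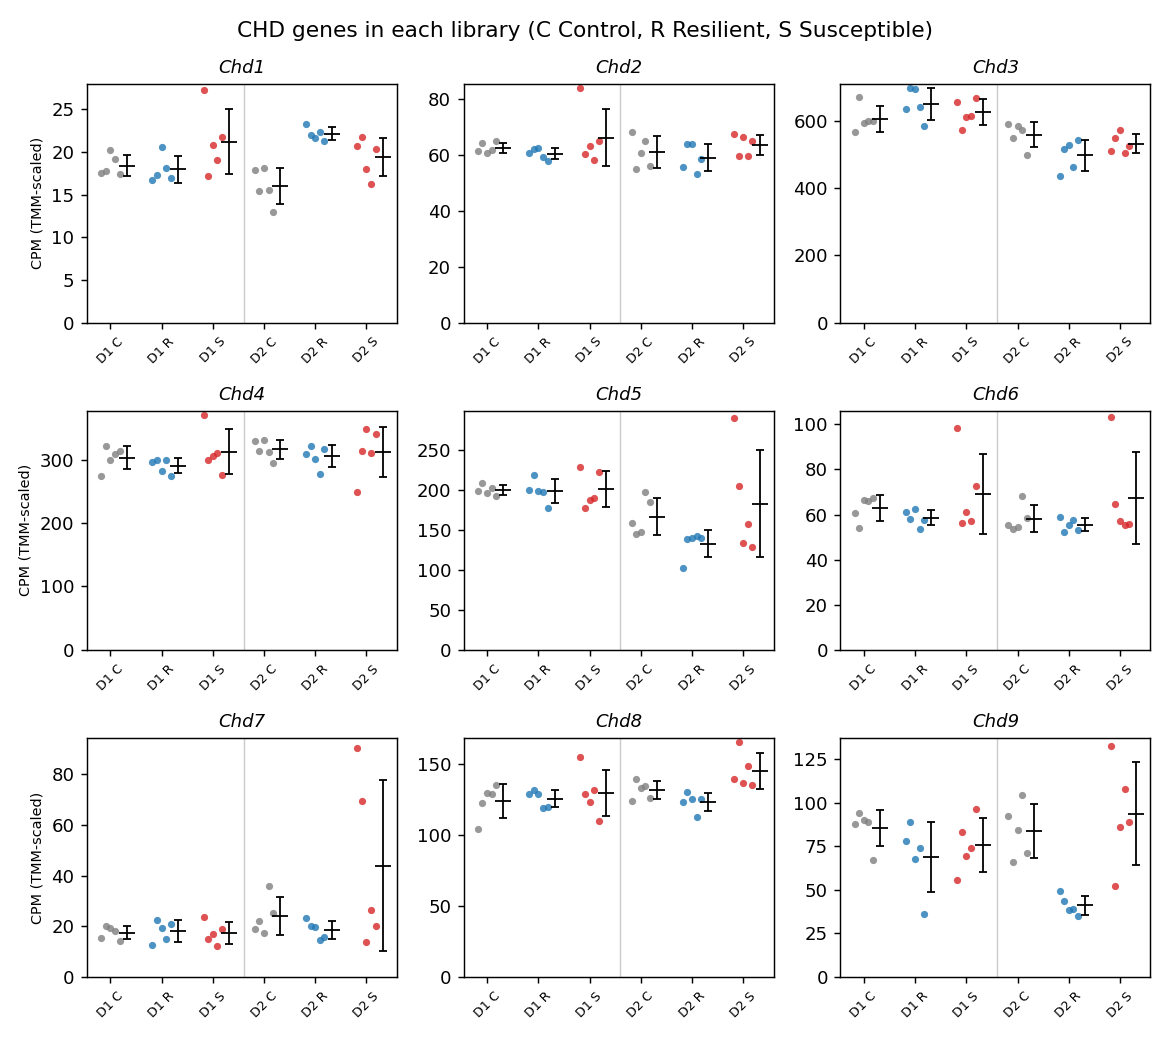
Each CHD gene in CPM (TMM-scaled) in each of the 30 libraries, with the mean and SD of 5 libraries in black; C, R and S stand for Control, Resilient and Susceptible. Chd9 is low in D2 Resilient, Chd1 is high there, and Chd7 is high in 2 D2 Susceptible libraries.

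Across the stress comparisons in D1, 0 of the 9 members were called in Susceptible against Control, Resilient against Control or Susceptible against Resilient, where 0% of all genes were called in each. DESeq2 and voom also called 0 members. In the same order, DESeq2 called 0.0155%, 0.00516% and 0.0413% of all genes, and voom 0%, 0.893% and 0.0774%. By edgeR at an unadjusted p under 0.05 there was 1 member, Chd1 in Susceptible against Resilient (log2 difference 0.23, p 0.0460), against 3.49% of all genes. Without any 1 library that difference was 0.13 to 0.30. Chd1 was highest of the 30 libraries, at 27.3 CPM, in D1 Susceptible replicate 1, the library with most of its counts in Gm42418. Chd2 and Chd4 were also highest there. The other D1 comparisons had 0 members at an unadjusted p under 0.05, where 2.4% (Susceptible against Control) and 2.6% (Resilient against Control) of all genes were. The median log2 difference of the 9 was 0.04, -0.04 and 0.10 in these comparisons, beside -0.01 over all genes in each. All 9 have at least 8000 bases of exons in union. The 2714 tested genes of that length had medians of 0.02, -0.04 and 0.06, of the same signs, so these shifts are not particular to the family.

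In D2, Resilient against Control called 0 members by edgeR and 0% of all genes, and 4 members, Chd1, Chd3, Chd5 and Chd9, were at an unadjusted p under 0.05, as were 4.2% of all genes. Groups did not overlap for 3 members, Chd1, Chd5 and Chd9, against 1.31% of all genes. Both D2 stress groups belong to the contrast that chose the family through Chd9. Counts of either against Control are therefore a description and support nothing about the family. Susceptible against Control called 0 members, where 0.00516% of genes were called, with Chd1 and Chd7 at an unadjusted p under 0.05 (15.7% of all genes). The Chd7 difference there was 0.87 (SE 0.338), and it was -0.27 without D2 Susceptible replicates 1 and 2. Susceptible against Resilient is the contrast behind the choice of the family, and its counts are no test of the members. There 1 member, Chd9, met the threshold beside 0.0516% of all genes, and the groups of Chd8 and Chd9 did not overlap beside 1.5% of all genes. The 3 differences between D1 and D2 changes called 0 members and 0% of all genes. At an unadjusted p under 0.05 by edgeR they had 0 members (7.79% of all genes) in Susceptible against Control. There were 3 (4.99%), Chd1, Chd3 and Chd9, in Resilient against Control. In Susceptible against Resilient there were 4 (12.4%), Chd1, Chd5, Chd7 and Chd9. The last holds the choosing contrast and the other 2 share D2 libraries with it, so these counts are a description only.

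**Figure D5:**
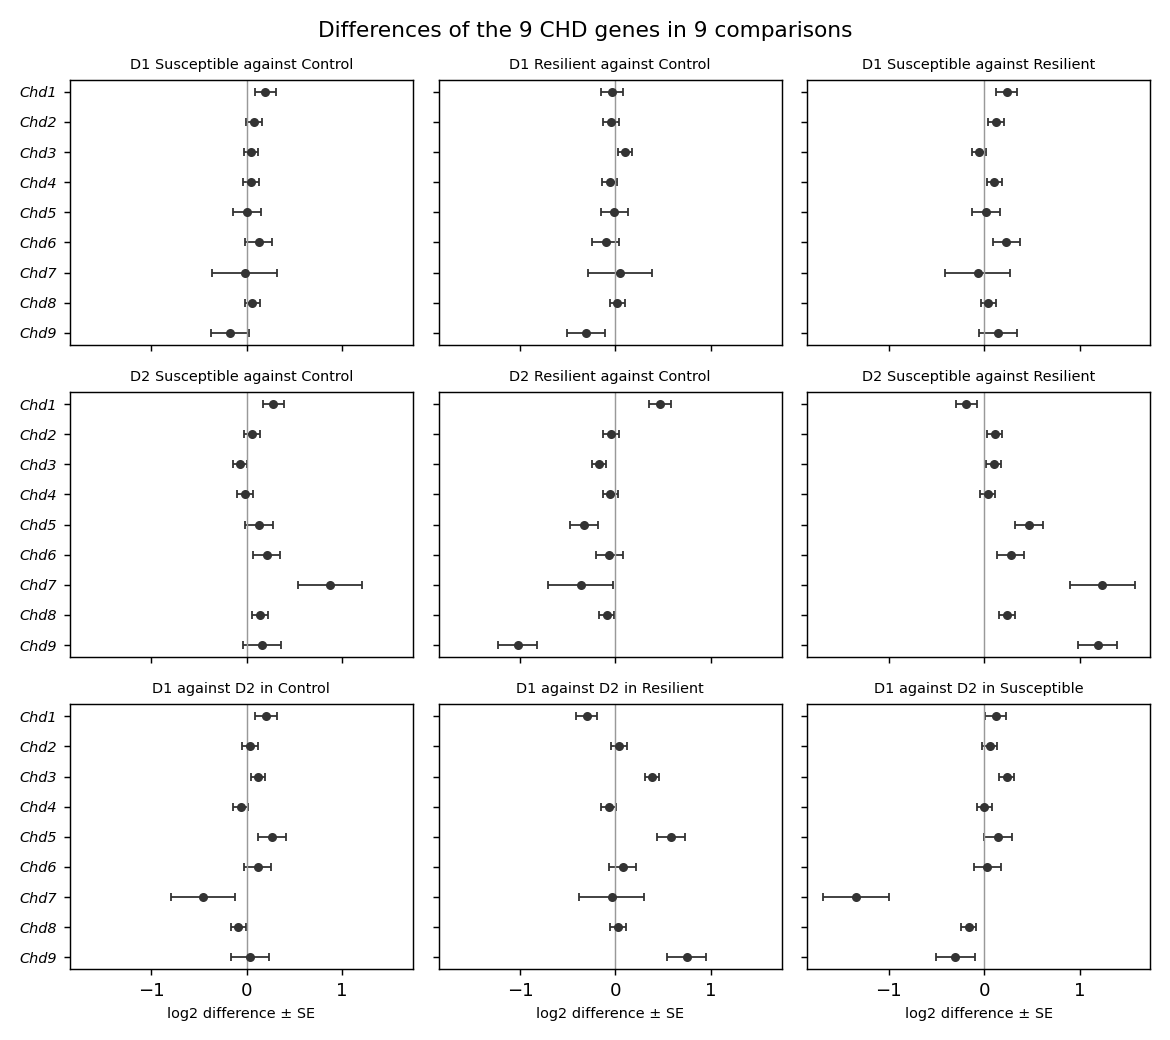
Log2 differences of the 9 CHD genes, with SE, in 6 stress comparisons and 3 comparisons of D1 with D2; positive values are higher in the group named first. The D1 stress differences lie between -0.31 and 0.23, and the widest departures are those of Chd7 and Chd9 in comparisons with D2 stressed groups.

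The other remodeller genes gave a wider view of the machinery. The list held 77 genes of NuRD partners, ChAHP partners of Chd4, the methyltransferase core that binds Chd8, SWI/SNF, ISWI, INO80 and other SNF2-type ATPases, and all were tested. None was called in the 6 stress comparisons, and their median log2 difference in D2 Resilient against Control was 0.02, beside -0.01 over all genes. In D1 against D2 Control 3 were called, or 3.90% beside the 8.3% of all genes. Btaf1, which removes TATA-binding protein from DNA, was higher in D1 by 0.64 (SE 0.160, edgeR adjusted p 0.00974), and the SWI/SNF subunits Smarcd3 and Smarcd2 were lower by log2 differences of -0.38 and -0.51 (edgeR adjusted p 0.000267 and 0.0229). In Resilient mice 1 was called, Bcl7a, a SWI/SNF subunit, at 0.26 (edgeR adjusted p 0.0458), or 1.30% of the list beside the 6.65% of all genes. In Susceptible mice 22 were called, 6 higher and 16 lower in D1, or 28.6% beside the 23.9% of all genes. Higher in D1 with the smallest adjusted p were the NuRD subunit Mta3 (log2 difference 1.51, edgeR adjusted p 0.00827), the INO80 subunit Actr8 (0.34, 0.0154) and Cbx5, which encodes heterochromatin protein HP1 alpha (0.20, 0.0306). Lower were the ISWI partner Baz1a (-1.75, 0.00161), the methyl-CpG reader Mbd2 (-0.51, 0.00211) and Smarcd3 (-0.28, 0.00306). Without D2 Susceptible replicates 1 and 2, 2 of the 77 were called beside 10.4% of all genes, Mta3 (0.92, edgeR adjusted p 0.0204) and Smarcd3 (-0.24, edgeR adjusted p 0.0416).

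Over the 30 libraries the tested genes with the log2 CPM most like that of Chd9 were Stk36, Prrc1, Ccdc105, Fgf22 and Rnf225, with Pearson r of 0.77, 0.67, 0.65, 0.59 and 0.59. Of these only Prrc1 had a group mean above 3 CPM. Among the other 8 members Chd5 was closest to Chd9 at 0.47, and Chd1 was farthest at -0.38. After group means were removed these became 0.18 and -0.09, and Chd8 was farthest at -0.32. The 5 named genes then had values of 0.51 to 0.61. The closest pair of members was Chd5 and Chd6 at 0.65 over all libraries, and Chd5 and Chd7 at 0.76 after group means were removed, where Chd5 and Chd6 had 0.70. These are descriptions over libraries that share groups and, in D2 Susceptible replicates 1 and 2, low numbers of detected genes.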

How the data were processed

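The authors deposited raw read counts per gene, without normalization, aligned with HISAT2 and counted with HTSeq on GRCm38 (mm10), per the submitters' processing notes. For versions, annotation release and strand, the entry is: not given in the sources used here. The 5 summary lines of each library (10.1% to 53.3% of its reads) stayed out of totals and tests. The members and gene lists were chosen with earlier results of these data known.

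Symbols and coordinates came from GENCODE M21, which named 55154 of the 55335 genes. Genes were filtered with filterByExpr (minimum count 10, minimum total 15), TMM-scaled and put through the robust quasi-likelihood F test of edgeR 4.0.16 (R 4.3.3), in 1 model of 6 groups without a replicate block. Benjamini-Hochberg adjustment ran over 19368 genes in each of 12 comparisons, at 0.05. The SE is the log2 difference divided by the square root of F. The text names all members, up to 3 other chromatin genes in each direction per comparison by smallest adjusted p, and the 5 genes most correlated with Chd9 (log2 CPM, prior count 2) with unique symbols, leaving out Gm and Rik names. The 60 pairs of replicates differed beyond sampling noise. Libraries carry no molecular identifiers, so depth covers counting error only.

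The test was tried on simulated counts with 200 changed genes. A first version drew these from all genes tested and missed the recovery required of it. The requirement was then set on genes with a mean over 5 CPM and a biological coefficient of variation under 0.4. In all 4 simulations of each kind, recovery was lower when the changed genes came from all genes tested, so a gene that is not called may still have changed.

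Alternatives were DESeq2 1.42.0, its size factors, no filter, only the groups compared, voom with quality weights (limma 3.58.1), a replicate block, each library left out, and libraries that stand apart left out.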

Additional observations from a re-analysis of the deposited data

Results flagged for a closer look

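In 4 of the 54 sets of 5 libraries (9 genes in 6 groups) 1 library lay far from the others by Dixon's criterion, where chance gives about 1 in 20, or 2.7. Chd2 was 84.1 CPM in D1 Susceptible replicate 1, the library with most of its counts in Gm42418, against 58.4 to 65.2 CPM in the other 4. Chd5 was 103 CPM in D2 Resilient replicate 1, below the 138 to 142 CPM of the others. Chd6 was 103 CPM in D2 Susceptible replicate 1, the library with the fewest genes detected, against 55.4 to 64.6 CPM. Chd9 was 67.0 CPM in D1 Control replicate 5, below the 87.7 to 93.8 CPM of the others.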

How the results depend on the processing

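The number of members called was 0 in the 3 D1 stress comparisons and the 3 differences between D1 and D2 changes under all alternatives run. Counts in D2 Susceptible against Resilient, which chose the family, are given as a description only. DESeq2 called 1 member in D2 Resilient against Control (0.0258% of all genes) and 4 in D2 Susceptible against Resilient (5.04%). With only the groups compared in the fit these counts were 1 (0.00574%) and 0 (0%), and D1 against D2 in Susceptible gave 0 (5.48%). Voom gave 2 in D1 against D2 Control (28.4%). Leaving out D2 Susceptible replicates 1 and 2 gave 0 in D2 Susceptible against Resilient (0%). It gave 1 in D1 against D2 Control (15.3%) and 1 in D1 against D2 Susceptible (10.4%). Leaving out D1 Susceptible replicate 1 and D2 Resilient replicate 5 as well gave 0 in D2 Susceptible against Resilient (0 of 20339 genes). It gave 1 in D1 against D2 Susceptible (2163 of 20339 genes). Without any 1 library the ranges were 0 to 1 in D2 Resilient against Control, 0 to 1 in D2 Susceptible against Control, 0 to 4 in D2 Susceptible against Resilient, 2 to 3 in D1 against D2 Resilient and 2 to 3 in D1 against D2 Susceptible. These ranges have no share of all genes beside them and are no result about the members. The cause of the changes was not tested. With a replicate block the counts were the same. There was 1 member in D2 Susceptible against Resilient (10 of 19368 genes). D1 against D2 had 3 in Resilient (1230 of 19368 genes) and 2 in Susceptible (4173 of 19368 genes). All other comparisons had 0, among them D1 against D2 Control, where 1497 of 19368 genes were called. Same-numbered libraries did not deviate together over all genes tested (75 pairs, median correlation -0.0036, range -0.168 to 0.0779). No pairing by number was seen, but a correlation over all genes cannot exclude a shared batch. Chd9 in D2 Resilient against Control passed in edgeR without D1 Resilient replicate 5 (adjusted p 0.0371), and Chd7 in D2 Susceptible against Control without D2 Susceptible replicate 3 (1.10, adjusted p 0.0416). None of the 6 differences called changed sign under any alternative. They were picked as called, and each holds D2 stressed libraries of the choosing contrast, so this is a description and no support. Of the 102 not called, 38 changed sign under at least 1. Among these was Chd7 in D2 Susceptible against Control (0.87, and -0.27 without D2 Susceptible replicates 1 and 2). Depth limits Chd1 and Chd7 most, which had the lowest counts.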
